A study of Mus musculus with 25 samples.

Results

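Published direct targets of miR-150 were followed in CD4 T cells: Myb, Cbl, Cbll1, Elk1, Zeb1, Pdcd4, Foxp1, P2rx7 and Tet3. They were chosen as a list of published targets, not from the values of these genes here, though earlier results of these data were known. They are 9 of the 46078 genes counted. All 9 had enough counts to be tested, among 14703 tested genes. CD4 T cells were sorted from C57BL/6NTac mice, and their RNA was sequenced in 25 libraries. The mice were wild-type, miR-150 knock-out or miR-150 knock-in, and each genotype was sampled naive and at day 7 of EAE, experimental autoimmune encephalomyelitis, in which immunization against myelin makes T cells attack the nervous system. The wild-type day 7 group had 5 libraries and the other 5 groups had 4 each. The labels do not say how either allele was built, what drives the knock-in, or whether each library is a different mouse. The p-values therefore measure the spread between samples only, and that spread may be technical.

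A microRNA guides the Argonaute protein to messenger RNAs, mostly through pairing of its seed, bases 2 to 8, with the 3' untranslated region (3' UTR). Pairing usually lowers the amount or the translation of the messenger RNA, so a target's RNA may change little even where its protein does. miR-150 is abundant in resting lymphocytes and falls when they are activated, and its best known target is Myb, whose dose shapes lymphocyte development.

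The letters that pair with the miR-150-5p seed are TTGGGAG in a messenger RNA. TTGGGAG followed by A is called a full match here and TTGGGAG before another base a core match. TGGGAGA not preceded by T is called a shifted match, and TGGGAG alone a short match. They were searched on the sense strand of the longest 3' UTR that GENCODE M21 annotates for each gene, so each position counts in 1 class only. The strongest matches of the listed genes are shown, since they separate genes that hold the letters from those that do not. Each is 22 bases of the mm10 reference, printed 5' to 3' on the strand of the gene, with the seed match in capitals.
Myb, full match at base 856 of a 1238-base 3' UTR (chr10:21125311-21125332, minus strand): attggaaaacttatTTGGGAGA
Myb, full match at base 957 (chr10:21125210-21125231, minus strand): ttctttttctttttTTGGGAGA
Cbl, full match at base 4141 of 8469 (chr9:44147298-44147319, minus strand): ggctttgataatatTTGGGAGA
Cbll1, full match at base 2384 of 2450 (chr12:31484889-31484910, minus strand): taatgatgacatatTTGGGAGA
P2rx7, full match at base 807 of 2985 (chr5:122682096-122682117, plus strand): ttaagtcattacatTTGGGAGA
P2rx7, core match at base 1318 (chr5:122682607-122682628, plus strand): ggaactgcaggtggTTGGGAGc
Elk1, core match at base 522 of 2055 (chrX:20934922-20934943, minus strand): tacgatttaatggtTTGGGAGt
Elk1, core match at base 1033 (chrX:20934411-20934432, minus strand): aagtgtccctggagTTGGGAGg
Foxp1, core match at base 220 of 4752 (chr6:98929864-98929885, minus strand): atcaagaatcccatTTGGGAGt
Tet3, shifted match at base 1890 of 5669 (chr6:83366146-83366167, minus strand): tttaacctgtaattgTGGGAGA

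Myb is the listed gene with 2 full matches. Among 11131 tested protein-coding genes with an annotated 3' UTR, 34 (0.305%) had 2 or more full matches. Cbl, Cbll1 and P2rx7 had 1 each, beside 537 of 11131 genes (4.82%) with at least 1. Elk1, Foxp1 and the second P2rx7 site were core matches; TTGGGAG in either context was found in 1827 genes (16.4%). Zeb1 and Tet3 had a shifted match and no TTGGGAG, and the 717-base 3' UTR of Pdcd4 held none of the 4 kinds. Short matches alone were also present in Cbl (2), Cbll1, Foxp1 and Tet3 (1 each). Length bears on these counts: of 189 genes with a 3' UTR within 25% of the length of that of Cbl, 25.4% had a full match, whereas of 2007 genes as long as Myb 3.74% did. A match describes letters in the annotated window, and the absence of one says only that these letters are not there.

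**Figure D1:**
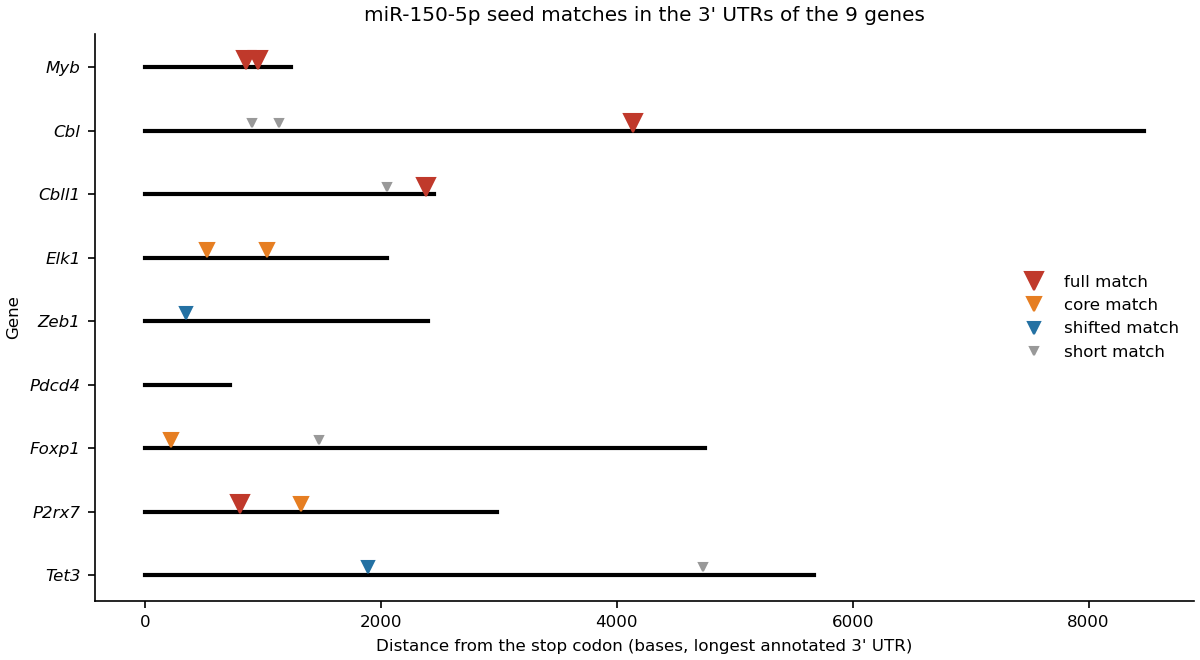
Positions of seed matches along the longest annotated 3' UTR of each listed gene, in bases from the stop codon (horizontal axis); bars show UTR length and symbols the kind of match. Myb carries 2 full matches in a UTR of 1238 bases, Cbl 1 in a UTR of 8469 bases, and Pdcd4 none.

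Across the series, total counts per library ran from 6024043 to 49489134 (median 16312725), and the lowest count of any listed gene in any library was 120. The Mir150 gene (chr7:45121757-45121821) gave 0 counts in all 8 knock-out libraries, which puts it at least 758-fold lower than in naive wild-type cells and, at day 7, at least 516-fold lower, at a limit of 3 counts over the group and for counting error only. Levels are CPM, counts scaled to library size. Knock-in cells held 14.3 ± 1.42 CPM (SD, n = 4) when naive and 15.9 ± 9.22 (SD, n = 4) at day 7, beside 20.2 ± 4.86 (SD, n = 4) and 16.3 ± 5.57 (SD, n = 5) in wild-type cells. Reads over this gene do not tell the mature microRNA from its precursors, so a higher dose of miR-150 in the knock-in cells is not shown by these data. Cd4 was at 443 to 582 CPM in every library, while Cd8a stayed at 0.160 to 6.77 CPM and Cd8b1 at 6.28 to 14.7 CPM. The 7 B cell markers summed to 139 to 201.4 CPM per library. Knock-out day 7 replicate 3 had the highest share of ribosomal-RNA-like counts (32.4%) and the lowest limma voom quality weight (0.144), and calls that depend on it are named.

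The listed genes differed in level. Per kilobase of gene model, which allows genes to be compared, Pdcd4 was highest at 125 CPM per kb averaged over the 25 libraries. Foxp1 (36.2 CPM per kb), Tet3 (26.3), Cbl (21.6) and Zeb1 (15.5) followed. Cbll1 (5.55), Myb (4.67), P2rx7 (3.91) and Elk1 (3.48) were lowest. Their steadiness differed too: the highest library was 3.09 times the lowest for Myb and 2.89 times for P2rx7, but 1.24 times for Zeb1, 1.30 for Tet3, 1.35 for Foxp1 and 1.36 for Cbl. When the 6 groups were ordered by mean, neighbouring groups overlapped in 5 of 5 pairs for every listed gene except Cbl, for which 4 of 5 did. In that exception, knock-in day 7 was the lowest group and lay below wild-type day 7 in every library. Libraries of these 2 groups did not overlap for 1.47% of all tested genes. The share over all genes for groups ordered by mean was not computed. In bulk RNA, fewer cells of a type and less RNA per cell cannot be told apart.

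**Figure D2:**
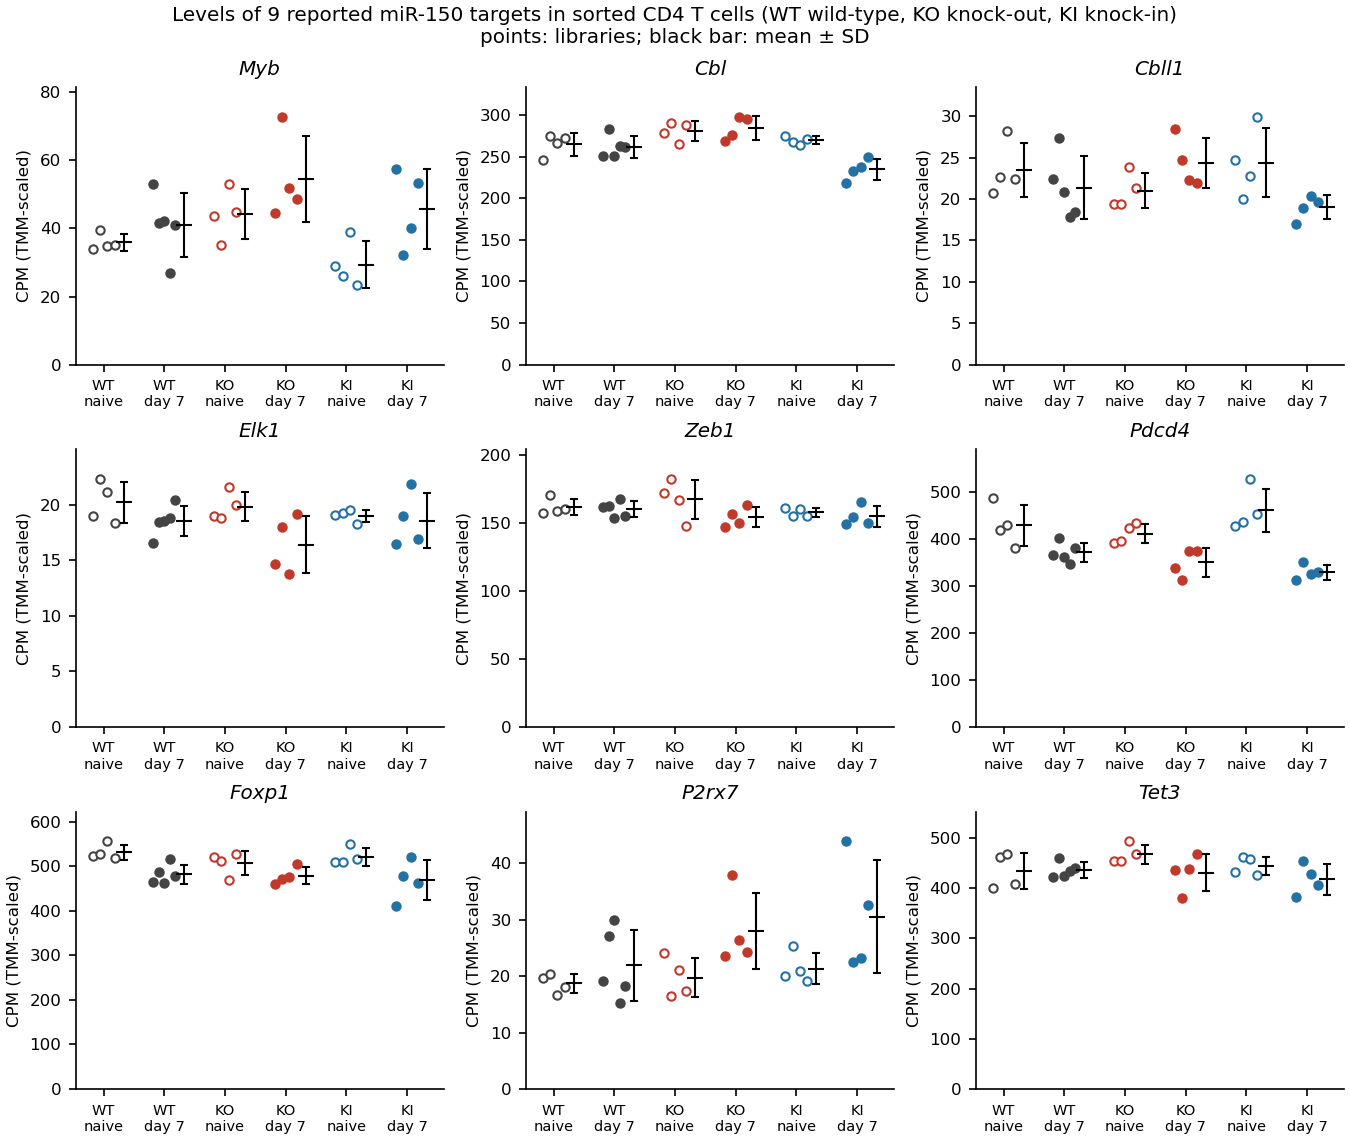
Level of each listed gene in CPM (vertical axes, from 0) in every library of the 6 groups; points are libraries and bars the mean ± SD. At day 7 knock-out and knock-in libraries separate for Cbl (269 to 298 against 218.9 to 249.5 CPM) and Cbll1 (22.0 to 28.5 against 17.0 to 20.4 CPM). They did so for 4.84% of all tested genes.

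Genotypes were compared with edgeR's quasi-likelihood test, two-sided, with Benjamini-Hochberg adjustment over all 14703 genes. A gene is called when its adjusted p is below 0.05, and fold changes are on the log2 scale. Knock-out against wild-type cells asks whether a target rises when miR-150 is lost. None of the 9 genes was called, 0 in naive cells, 0 at day 7 and 0 over the mean of both stages, beside 0.0204%, 0.0476% and 0.17% of all tested genes. At an unadjusted p under 0.05 there were 0, 2 (Cbl and Myb) and 2 (Cbl and Myb) of 9, beside 7.55%, 9.45% and 9.15% of all genes. DESeq2 and limma voom called none of the 9 in these comparisons. Libraries of the 2 genotypes were apart for 0 of 9 in naive cells and 0 at day 7, beside 4.71% and 2.03% of all tested genes. The median log2 fold change of the 9 over both stages was 0.02, with 5 positive and 4 negative, and that of all tested genes was 0.00.

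Myb (ENSMUSG00000019982, chr10:21124935-21160984, minus strand) encodes a transcription factor that drives proliferation and survival of lymphoid progenitors. Naive knock-out libraries held 43.8, 35.1, 53.2 and 44.7 CPM, naive wild-type libraries 34.1, 39.6, 34.9 and 35.3, and naive knock-in libraries 28.9, 26.0, 39.1 and 23.5. At day 7 the values were 44.5, 72.8, 51.9 and 48.6 in knock-out, 53.2, 41.7, 42.3, 26.9 and 41.0 in wild-type, and 57.3, 32.1, 40.2 and 53.3 in knock-in cells. Of the 4 naive knock-out libraries 3 lay above all naive wild-type and knock-in libraries, and the groups overlapped at both stages. Over both stages Myb was 27.5% higher in knock-out than in wild-type cells, a log2 fold change of 0.35 (SE 0.13, 95% interval 0.09 to 0.62), which was not called (adjusted p = 0.361). This value was above that of 92.1% of all tested genes. All 5 markers of cycling cells (Mki67, Top2a, Cdk1, Ccnb1 and Birc5) also had a positive log2 fold change in this comparison. Their median was 0.43, and 0 of 5 were called, beside 0.17% of all tested genes. In knock-in against wild-type cells over both stages all 5 were positive too (median 0.21), where Myb had -0.06. In knock-out against knock-in cells over both stages 4 of 5 were positive (median 0.12), where Myb had 0.41. The part of these markers in the difference of Myb was not tested.

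Against knock-in cells the log2 difference of Myb in knock-out cells was 0.57 (SE 0.19, adjusted p = 0.280) when naive, 0.24 (SE 0.18, adjusted p = 0.675) at day 7 and 0.41 (SE 0.13, adjusted p = 0.144) over both stages. None of these was called by edgeR as fitted here. The day 7 value rested on single libraries, at 0.08 without knock-out day 7 replicate 2, 0.11 without knock-in day 7 replicate 2 and 0.37 without knock-in day 7 replicate 1. Without the filter on low counts, edgeR called Myb in knock-out against wild-type cells over both stages (log2 fold change 0.35, adjusted p = 0.000379, with 0.000379 to 0.723 over the alternatives). It also called Myb against knock-in cells, when naive (adjusted p = 2.36e-05) and over both stages (8.03e-06), where the alternatives reached 0.471 and 0.408. That fit tested every gene with a count in any library, a larger set than the 14703. It called 266 of those genes in place of 25 in the first comparison and 269 in place of 24 in naive knock-out against knock-in cells. In knock-in against wild-type cells the log2 fold change of Myb was -0.27 (SE 0.19, adjusted p = 0.9995) when naive and -0.06 (SE 0.13, adjusted p = 0.99998) over both stages.

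Cbl (ENSMUSG00000034342, chr9:44142976-44234049, minus strand) encodes a ubiquitin ligase that tags activated receptors and kinases for degradation and restrains T cell receptor signalling. At day 7 the knock-out libraries held 269, 276, 298 and 295 CPM and the knock-in libraries 218.9, 232, 238 and 249.5, beside 251, 283, 251, 263 and 261 in wild-type libraries. Every knock-out library was above every knock-in library, and every knock-in library was below every wild-type library. Over all tested genes, libraries did not overlap for 4.84% in the first comparison and 1.47% in the second. In naive cells the groups overlapped, at 265 to 291 CPM in knock-out, 246 to 275 in wild-type and 265 to 276 in knock-in libraries.

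Cbl was the 1 listed gene called in a genotype comparison. At day 7 it was 21.3% higher in knock-out than in knock-in cells (log2 fold change 0.28, SE 0.05, adjusted p = 0.0162), where 0.374% of all tested genes were called in either direction and 0.136% as higher. Over both stages it was 12.4% higher (0.17, SE 0.04, adjusted p = 0.0198), beside 1.5% of genes called and 0.769% called higher. In naive cells alone the log2 difference was 0.06 (SE 0.05, adjusted p = 0.843). With DESeq2 and limma voom Cbl was also the 1 of 9 called at day 7 and over both stages. The call over both stages was lost without the filter on low counts (adjusted p = 0.0900, with 0.00159 to 0.0900 over the alternatives) and without knock-in day 7 replicate 1 (0.0580).

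Single cell type markers were called in the same comparison, 1 in each of 3 lists. Over both stages edgeR called 1 of 4 tested myeloid markers (Itgam, higher in knock-out cells), 1 of 7 tested markers of cytotoxic and innate-like lymphocytes (Klrd1, higher) and 1 of 7 CD4 T cell markers (Il7r, lower), and 0 of these 3 lists at day 7 alone. Over all tested genes 1.5% were called over both stages and 0.374% at day 7. No B cell marker (0 of 7) and no erythroid marker (0 of 3) was called over both stages. The lists were mixed in direction over both stages. Log2 fold changes were positive for 3 and negative for 1 of the myeloid markers. The counts were 5 and 2 for cytotoxic and innate-like lymphocytes and 3 and 4 for CD4 T cells. The 7 myeloid markers summed to 16.8 to 26.3 CPM in knock-out and 12.4 to 15.6 CPM in knock-in naive libraries, and at day 7 to 14.68 to 21.7 and 13.1 to 14.64 CPM, with 1 of the 7 without a count in each of knock-in naive, knock-out day 7 and knock-in day 7 cells. Within groups, over the 25 libraries, the correlation of Cbl with this sum was -0.24, and without taking out group means it was 0.28. With the sum of the CD4 T cell markers it was -0.62 within groups and -0.40 without that step. With the sum of the markers of cytotoxic and innate-like lymphocytes it was 0.35 and 0.39. The part of these cell types in the difference of Cbl was not tested.

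The day 7 call of Cbl depended on single libraries. It was lost without knock-in day 7 replicate 1 (adjusted p = 0.0766) or 2 (0.0573), or without knock-out day 7 replicate 3 (0.0650) or 4 (0.0588). It was also lost when only these 2 groups were in the model (adjusted p = 0.227, with 0.000301 to 0.227 over the alternatives). The log2 difference itself stayed between 0.25 and 0.31 in these fits and the other alternatives. Set against wild-type cells at day 7, Cbl had a log2 fold change of 0.12 (SE 0.05, adjusted p = 0.443) in knock-out and -0.16 (SE 0.05, adjusted p = 0.999) in knock-in cells. Libraries that did not overlap in knock-in against wild-type cells at day 7 were found for 1.47% of all tested genes. The comparisons with wild-type share its libraries.

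Cbll1 (ENSMUSG00000020659, chr12:31484829-31499616, minus strand) encodes a ubiquitin ligase related to Cbl, also known as Hakai. Its knock-out day 7 libraries held 28.5, 24.7, 22.3 and 22.0 CPM and its knock-in day 7 libraries 17.0, 18.9, 20.4 and 19.6. These do not overlap, as for 4.84% of all tested genes in this comparison. The log2 difference was 0.36 (SE 0.13, 95% interval 0.09 to 0.63), which was not called (adjusted p = 0.291). In naive cells the order was the other way, with a mean of 20.99 ± 2.13 CPM (SD, n = 4) without miR-150 and 24.4 ± 4.17 CPM (SD, n = 4) in knock-in cells, and those libraries overlapped.

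P2rx7 (ENSMUSG00000029468, chr5:122643911-122691432, plus strand) encodes an ATP-gated ion channel of the plasma membrane. Its mean was lowest in wild-type naive cells, whose libraries held 19.6, 20.4, 16.6 and 18.1 CPM. At day 7 wild-type libraries held 19.2, 27.1, 29.97, 15.2 and 18.3 CPM, knock-out libraries 23.6, 37.9, 26.4 and 24.2, and knock-in libraries 43.9, 22.6, 23.1 and 32.6. The groups overlapped. Its mean was higher than wild-type in both altered genotypes, by 0.22 (SE 0.14, adjusted p = 0.696) in knock-out and 0.34 (SE 0.14, adjusted p = 0.99998) in knock-in cells over both stages, and neither difference was called. Without the filter on low counts, edgeR called P2rx7 higher in knock-in than in wild-type cells over both stages (0.35, adjusted p = 0.0485). It also did so at day 7 (0.49, adjusted p = 0.0209). That fit called 84 and 96 of all genes in these comparisons, in place of 0 and 0. DESeq2 and limma voom called P2rx7 in neither.

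For the other 5 genes the tests between genotypes gave narrower intervals than for Myb. Over all 25 libraries Zeb1 ran from 147 to 182 CPM, Tet3 from 380.0 to 494 and Elk1 from 13.7 to 22.3, with overlap between the genotypes at both stages. Elk1 (ENSMUSG00000009406, chrX:20933395-20950608, minus strand), a transcription factor that growth factor signalling activates with serum response factor, had a log2 fold change of -0.11 (95% interval -0.27 to 0.05) in knock-out against wild-type cells over both stages. For Zeb1 (ENSMUSG00000024238), a zinc finger repressor needed in T cell development, the interval was -0.09 to 0.08. Foxp1 (ENSMUSG00000030067, chr6:98925338-99522721, minus strand), a forkhead factor that keeps T cells quiescent, had an interval of -0.12 to 0.05. Pdcd4 (ENSMUSG00000024975, chr19:53892231-53929860, plus strand), an inhibitor of translation initiation, had one of -0.18 to 0.03. Tet3 (ENSMUSG00000034832, chr6:83362373-83459084, minus strand), an enzyme that oxidizes methylated cytosine in DNA, had one of -0.05 to 0.13. None of these tests was called, and the upper ends of these 5 intervals lie at or below 0.13.

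**Figure D3:**
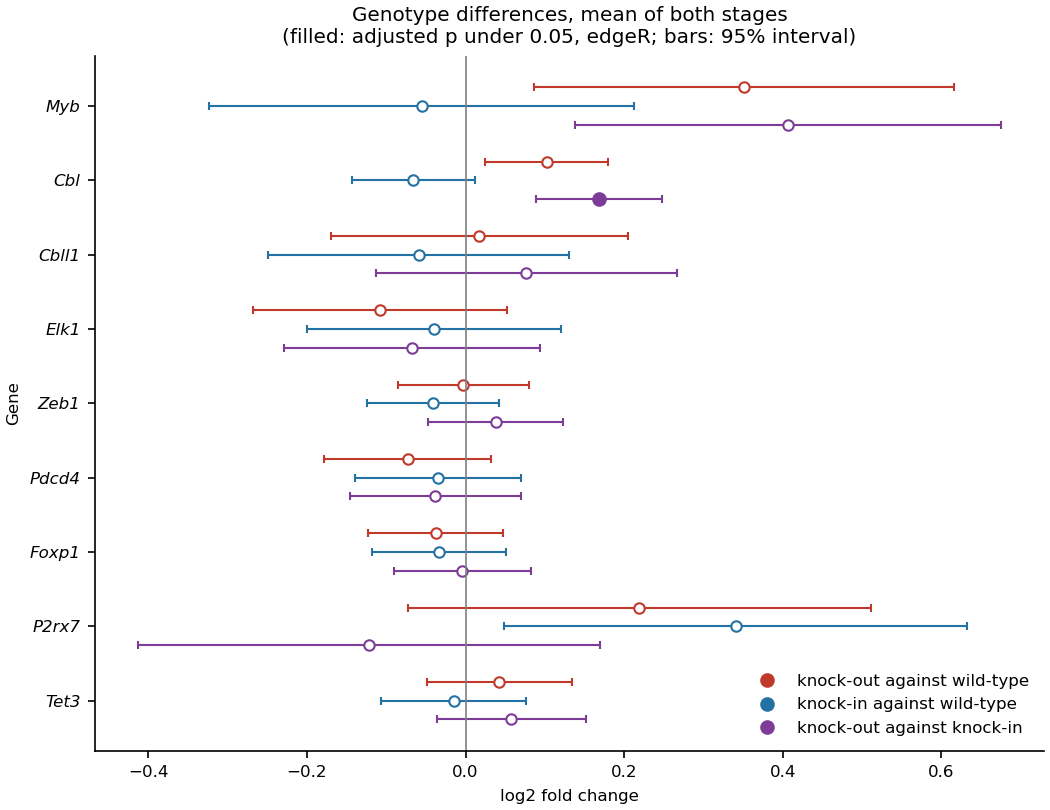
Log2 fold changes of the 9 genes between genotypes over the mean of both stages (horizontal axis), with 95% intervals from edgeR; colours show the 3 comparisons, the vertical line marks no difference and filled symbols mark called values. Cbl in knock-out against knock-in cells (0.17) is the filled symbol, and the interval of Myb in knock-out against wild-type cells runs from 0.09 to 0.62 without a call.

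Knock-in against wild-type cells gave 0 called genes among the 9 in naive cells, at day 7 and over both stages. Over all tested genes 0.0136%, 0% and 0% were called. At an unadjusted p under 0.05 there were 0, 3 (Cbl, P2rx7 and Pdcd4) and 1 (P2rx7) of 9, beside 2.26%, 4.65% and 3.15% of all genes, and DESeq2 and limma voom called none. In naive cells 0 of 9 had libraries apart, beside 3.22% of all genes. Over both stages 8 of the 9 log2 fold changes were negative, all of them at -0.07 or closer to 0, and their median was -0.04, beside 0.00 for all tested genes. In naive cells 0 of 9 were called in knock-out against knock-in cells, and 0 had libraries apart, beside 0.163% and 6.98% of all genes. Myb and Pdcd4 had an unadjusted p under 0.05, as did 9% of all genes, and DESeq2 and limma voom called none.

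The kind of seed match was set beside the genotype differences as a description. In knock-out against wild-type cells over both stages, the 537 genes with a full match had a median log2 fold change of 0.02 and the 6347 genes with none of the 4 kinds -0.00. The 34 genes with 2 or more full matches, Myb among them, had a median of -0.01. In knock-out against knock-in cells at day 7 the medians of full match and none were 0.04 and -0.01. Most genes of these classes lay between -0.30 and 0.29 and between -0.33 and 0.28. For the listed genes with a full match the same day 7 difference was 0.24 in Myb, 0.28 in Cbl, 0.36 in Cbll1 and -0.13 in P2rx7. Without a full match it was -0.19 in Elk1, -0.01 in Zeb1, 0.09 in Pdcd4, 0.03 in Foxp1 and 0.04 in Tet3. Knock-out against wild-type cells over both stages gave 0.35 in Myb, 0.10 in Cbl, 0.02 in Cbll1 and 0.22 in P2rx7. Without a full match the values of that comparison were -0.11 in Elk1, -0.00 in Zeb1, -0.07 in Pdcd4, -0.04 in Foxp1 and 0.04 in Tet3.

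Day 7 and naive cells were compared next, since miR-150 itself is known to fall on activation. Over the mean of the 3 genotypes, 4 of the 9 genes were called, beside 11.2% of all tested genes: Myb and P2rx7 were higher at day 7 (6.16% of genes higher) and Pdcd4 and Foxp1 were lower (5.06% lower). Within a genotype, 0 of 9 were called in wild-type cells (2.14% of all genes), 0 in knock-out cells (0.408%) and 1, Pdcd4, in knock-in cells (2.02%, with 1.01% lower). At an unadjusted p under 0.05 there were 2 in wild-type (Foxp1 and Pdcd4), 3 in knock-out (Elk1, P2rx7 and Pdcd4) and 6 in knock-in cells (Cbl, Cbll1, Foxp1, Myb, P2rx7 and Pdcd4), beside 15.1%, 12.8% and 15.1% of all genes. DESeq2 and limma voom called none of the 9 in wild-type or knock-out cells, and 2 and 4 in knock-in cells.

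Pdcd4 had the steadiest change among the 9. Wild-type libraries went from 486, 419, 430.2 and 382 CPM to 367, 402, 361, 348 and 380.0. Knock-out libraries went from 391.8, 397, 423 and 434 to 339, 312, 374 and 374, and knock-in libraries from 428, 435, 527 and 453 to 312, 350.2, 326 and 330.1. Naive and day 7 libraries did not overlap in knock-out cells (5.07% of all tested genes) or in knock-in cells (11% of genes), and in wild-type cells 1 day 7 library lay above the lowest naive library. Over the 3 genotypes Pdcd4 fell by 19.3% (log2 fold change -0.31, SE 0.04, adjusted p = 1.26e-05).

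The fall of Pdcd4 within a genotype was -0.49 on the log2 scale in knock-in cells (SE 0.07, adjusted p = 0.000344). In wild-type cells the value was -0.21 (SE 0.07, adjusted p = 0.126) and in knock-out cells -0.23 (SE 0.07, adjusted p = 0.153). The difference between the knock-in and wild-type changes was -0.28 (SE 0.10, unadjusted p = 0.0120, adjusted p = 0.999), and that between knock-out and wild-type changes was -0.02 (SE 0.10, adjusted p = 0.972). Neither interaction called any of the 14703 genes (0%); at an unadjusted p under 0.05 there were 2 of the 9 genes (Cbl and Pdcd4) for the knock-in and 0 for the knock-out, beside 3.8% and 7.79% of all genes. DESeq2 called 1 gene and limma voom 2 of all genes in the first, and 1 and 0 in the second, none of them listed.

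Foxp1 went from 523, 528, 557 and 519 CPM to 465, 488, 463, 516 and 478 in wild-type cells, and no day 7 library reached a naive one (5.86% of all tested genes). In knock-out cells it went from 521, 511, 469 and 528 to 461, 472, 477 and 507, and in knock-in cells from 509, 509, 550.0 and 516 to 412, 479, 522 and 464; both overlapped. Over the 3 genotypes Foxp1 fell by 8.32% (log2 fold change -0.13, SE 0.03, adjusted p = 0.0153). Its gene model overlaps Gm20696 on the same strand, which reached 95.3 CPM, and the split of reads between the 2 is uncertain because the sources used here do not give the counting rule.

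Myb rose by 28.9% over the 3 genotypes (log2 fold change 0.37, SE 0.11, adjusted p = 0.0238) and P2rx7 by 33.1% (0.41, SE 0.12, adjusted p = 0.0200). Both calls were lost without knock-in day 7 replicate 1, at adjusted p = 0.0573 for Myb and 0.0515 for P2rx7. The values within knock-in cells were 0.62 (SE 0.19, adjusted p = 0.0852) for Myb and 0.52 (SE 0.20, adjusted p = 0.197) for P2rx7. The Myb change in knock-in cells was called by limma voom (adjusted p = 0.0304) and by edgeR without the filter on low counts (7.74e-07), with up to 0.0979 over the alternatives. Cbl in knock-in cells went from 276, 268, 265 and 271 CPM to 218.9, 232, 238 and 249.5 without overlap, as did 11% of all tested genes. Its log2 change was -0.20 (SE 0.05), just short of a call (adjusted p = 0.0510). DESeq2 (0.0222) and limma voom (0.0203) called this change, and over the alternatives the adjusted p ran from 0.0203 to 0.130.

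The remaining 4 genes were not called over the 3 genotypes, and their log2 fold changes were all below 0. Elk1 had -0.15 (SE 0.06, adjusted p = 0.146). Its lowest group mean was in knock-out day 7 cells, whose libraries held 14.7, 17.98, 13.7 and 19.1 CPM beside 18.9, 18.8, 21.6 and 19.9 in naive knock-out cells. Its gene model overlaps Uxt on the same strand, at up to 6.09 CPM. Cbll1 had -0.10 (SE 0.08, adjusted p = 0.476), Tet3 -0.07 (SE 0.04, adjusted p = 0.267) and Zeb1 -0.05 (SE 0.03, adjusted p = 0.351). For Cbll1 the mean was higher at day 7 in knock-out cells and lower in the other 2 genotypes; the difference between the knock-out and wild-type changes was 0.37 (SE 0.18, adjusted p = 0.635).

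**Figure D4:**
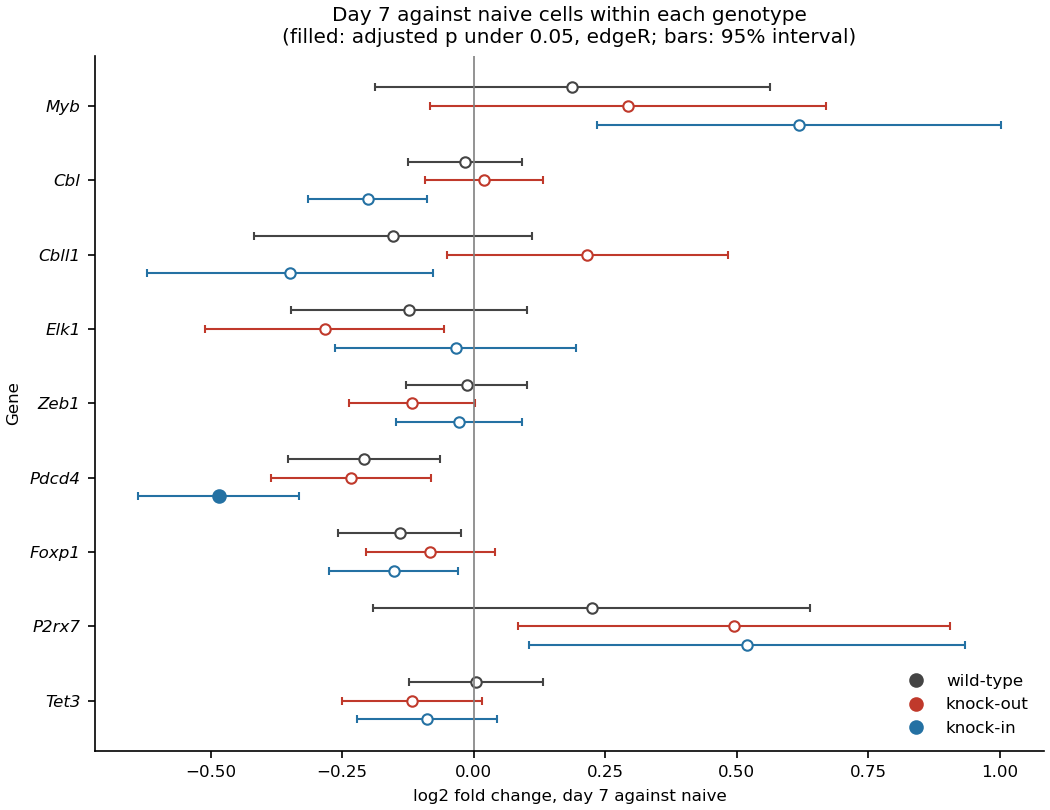
Log2 fold changes from naive to day 7 with 95% intervals from edgeR for the 9 genes in each of the 3 genotypes; filled symbols mark called values. Pdcd4 lies below 0 in all 3 genotypes, at -0.21, -0.23 and -0.49, and Myb and P2rx7 lie above 0 in all 3.

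Markers of cycling cells moved with 2 of these genes. The summed level of Mki67, Top2a, Cdk1, Ccnb1 and Birc5 was 44.0 to 85.0 CPM in wild-type naive, 34.3 to 87.2 in knock-out naive and 25.8 to 109.7 in knock-in naive libraries. At day 7 it was 29.7 to 147, 82.6 to 370.2 and 65.6 to 306 CPM. Of the 5 markers 4 were called higher at day 7 over the 3 genotypes, all but Ccnb1, beside 6.16% of all tested genes. None of the 5 was at 0 throughout a group. Across the 25 libraries, which share group and scaling, the correlation of log2 levels with this sum was 0.86 for Myb, 0.78 for P2rx7, -0.68 for Foxp1 and -0.52 for Pdcd4. After group means were taken out it was 0.92, 0.75, -0.50 and -0.06. The library with the most P2rx7, knock-in day 7 replicate 1, also had the second highest marker sum, and that with the most Myb, knock-out day 7 replicate 2, had the highest. The part of cycling cells in the changes of these genes was not tested.

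**Figure D5:**
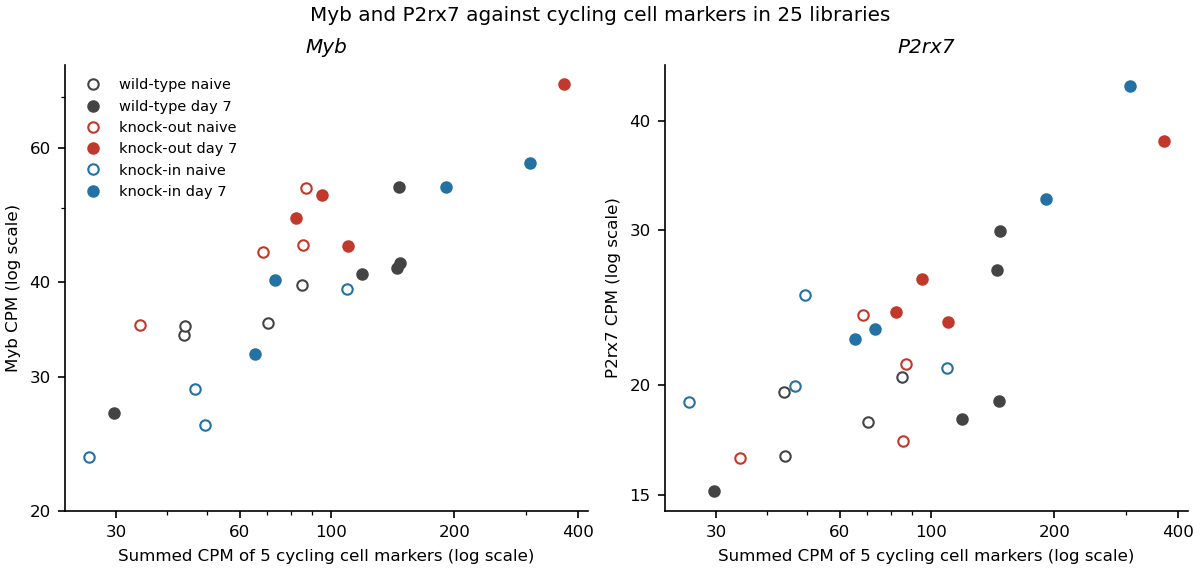
Level of Myb and of P2rx7 in CPM (vertical axes) against the summed CPM of 5 cycling cell markers (horizontal axes) in 25 libraries, all on log scales, with colour for genotype and filled points for day 7. Libraries with more marker RNA had more of both, with r = 0.86 for Myb and 0.78 for P2rx7 on log2 levels.

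For each listed gene, the 2 genes with the most similar pattern were found among 8458 tested genes of at least 5 CPM, by the correlation of log2 levels over the 25 libraries. Myb was closest to the spindle gene Tpx2 (r = 0.89) and the cytokinesis gene Racgap1 (0.87). Cbl was closest to the acetyltransferase gene Ep300 (0.80) and Pdzd8 (0.78). Pdcd4 lay nearest Sptbn1 (0.84) and Filip1l (0.84), and Foxp1 nearest Tdrp (0.89) and Bbs9 (0.86). P2rx7 paired with Cxcr5, the chemokine receptor of follicular helper T cells (0.85), and the histone gene Hist1h2bb (0.82). Tet3 was nearest Smad7 (0.82) and Itpkb (0.80), Elk1 nearest Elac2 (0.75) and Nfyc (0.75). Cbll1 with Mcm9 (0.66) and Prickle1 (0.63), and Zeb1 with Pcca (0.66) and Acadsb (0.65), had the weakest likeness. These are descriptions, over libraries that fall into the same 6 groups.

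Other reported miR-150 targets were read beside the 9. Of 11 listed, 9 were tested; Gab1 and Notch3 had too few counts. In knock-out against wild-type cells over both stages 0 of 9 were called (median log2 fold change -0.00), beside 0.17% of all tested genes. At an unadjusted p under 0.05 there was 1 (Foxo1), beside 9.15% of all genes, and DESeq2 and limma voom called 0. In knock-out against knock-in cells over both stages edgeR called 0, beside 1.5% of all genes. At an unadjusted p under 0.05 there were 4 (Egr2, Foxo1, Sp1 and Vegfa), beside 11.2% of all genes. By limma voom 0 of the 9 were called, beside 265 of all genes. DESeq2 called 1 of the 9, beside 342 of all genes. It was Foxo1, a transcription factor of naive T cell homing and survival, whose log2 difference by edgeR was 0.12 (SE 0.04, adjusted p = 0.0969). From naive to day 7 over the 3 genotypes edgeR called 2 of the 9 higher and 3 lower, beside 6.16% and 5.06% of all tested genes. Vegfa (log2 fold change 1.69) and the chemokine receptor gene Ccr6 (1.08) were among those that rose, and Egr2, which restrains activated T cells (-0.35), among those that fell. Levels were low for Vegfa, at 0.310 to 3.73 CPM over the libraries, and for Ccr6, at 1.88 to 16.1 CPM.

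Of 18 paralogues of the listed genes 11 were tested. In knock-out against wild-type cells over both stages 0 of the 11 were called, beside 0.17% of all tested genes. At an unadjusted p under 0.05 there were 2 (Elk3 and Tet2), beside 9.15% of all genes, and DESeq2 and limma voom called 0. Cblb, the close relative of Cbl that sets the activation threshold of T cells, was at 168 to 200.6 CPM in all libraries. Its log2 difference between knock-out and knock-in cells at day 7 was 0.01 (SE 0.05, adjusted p = 0.963), beside 0.28 for Cbl. Tet2 had 0.15 (SE 0.05, adjusted p = 0.117) in knock-out against knock-in cells over both stages, beside 0.06 (SE 0.05, adjusted p = 0.724) for Tet3. From naive to day 7 over the 3 genotypes, 2 of the 11 fell, Tet1 (-0.28, adjusted p = 0.00216) and Elk4 (-0.13, adjusted p = 0.0202), and 0 rose by edgeR. Over all tested genes 5.06% were called lower and 6.16% higher by that test. DESeq2 also called Mybl2, a cell cycle relative of Myb, whose log2 fold change by edgeR was 0.54 (SE 0.19, adjusted p = 0.0742).

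Genes that Myb is reported to activate numbered 7, all tested. In knock-out against wild-type cells over both stages 0 of 7 were called (median 0.05), beside 0.17% of all tested genes. Gata3 and Kit had an unadjusted p under 0.05, as did 9.15% of all genes, and DESeq2 and limma voom called 0. The log2 fold changes of the 7 were not all of 1 sign, with 6 positive and 1 negative, and ran from -1.20 to 0.43. Ccnb1 is both in this list and among the cycling cell markers. From naive to day 7, 1 of 7 was called in each genotype. The shares of all tested genes called were 2.14% in wild-type, 0.408% in knock-out and 2.02% in knock-in cells. The called gene was Bcl2, which protects lymphocytes from apoptosis. It rose by 0.23 in wild-type (SE 0.06, adjusted p = 0.0430), 0.41 in knock-out (SE 0.06) and 0.34 in knock-in cells (SE 0.06). Myc rose over the mean of the 3 genotypes, by 0.17 (SE 0.06, adjusted p = 0.0429), a call that DESeq2 also made and limma voom did not.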

How the data were processed

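Counts per Ensembl gene were deposited by the authors for 25 libraries as raw counts. Per the labels' protocols, total RNA was prepared with miRNeasy Mini kits, and paired reads of stranded libraries (SMARTer Pico) came from a NovaSeq. Per the submitters' processing notes, mm10 and DESeq2 were used. The sources used here do not give the aligner, counter, strand setting or annotation. GENCODE M21 supplied symbols, positions and 3' UTRs.

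Genes were filtered by filterByExpr (minimum count 10), scaled by TMM and fitted with edgeR 4.0.16 quasi-likelihood over all libraries, 1 mean per group, with Benjamini-Hochberg adjustment over 14703 genes in 15 comparisons. Levels are TMM-scaled CPM. DESeq2 1.42.0, limma 3.58.1 voom with quality weights, other scaling, filters and models, and leaving out each library were alternatives. No pair of libraries of a group agreed within sampling noise.

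The text names all 9 genes, called list members (some are not reported here) and the nearest genes by correlation; Foxo1, Cblb and Tet2 were named after their values were seen. The members and lists were chosen with earlier results of these data known.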

Additional observations from a re-analysis of the deposited data

How the results depend on the processing

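Besides leaving out each of the 25 libraries in turn, 10 alternatives were tried, and 66 gene values were recomputed under those that apply to them. The seed-match counts of the 9 genes were recomputed as well. Of these results 572 stayed the same (for fold changes, in direction and side of the threshold), 13 gained a call, 2 lost one and 7 changed sign. Without the filter on low counts, 1 of the 9 genes was called in each of knock-out day 7 against naive, knock-out against wild-type at day 7 and over both stages, knock-in against wild-type at day 7 and over both stages, and naive knock-out against knock-in cells, where 0 had been called, and 3 were called in knock-in day 7 against naive cells. Over all genes that fit, which tested a larger set than the 14703, raised the calls in those 7 comparisons from 60 to 540, 7 to 349, 25 to 266, 0 to 96, 0 to 84, 24 to 269 and 297 to 890. The last comparison gave 2 with DESeq2 and 4 with limma voom, beside 1. With a model of the 2 groups alone, knock-out against knock-in cells at day 7 gave 0. Cbl in knock-out against knock-in cells over both stages lost its call without the filter (adjusted p = 0.0900) and without knock-in day 7 replicate 1 (0.0580). The causes were not tested.

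Sign changes were of values close to 0. The log2 fold change of Cbll1 in knock-out against wild-type cells was -0.0188 with sets of library numbers as a block. That of Zeb1 was 2.19e-05 without the filter, 0.0056 with library number as covariate, 0.0068 with the block and 0.0071 with limma voom. That of Foxp1 in knock-out against knock-in cells was 0.0031 with the covariate and 0.0101 with limma voom. The cause was not tested.

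With 1 library left out, the number called ranged from 1 to 2 in knock-in day 7 against naive cells, 2 to 4 over the 3 genotypes, 0 to 1 in knock-out against knock-in cells at day 7 and 0 to 1 over both stages. Log2 fold changes that changed sign ranged from -0.144 to 0.0125 (Myb, knock-in against wild-type), -0.0256 to 0.0678 (Cbll1, knock-out against wild-type), -0.0243 to 0.0250 (Zeb1, knock-out against wild-type), -0.0335 to 0.0234 (Foxp1, knock-out against knock-in), -0.0355 to 0.00563 (Tet3, knock-in against wild-type) and -0.0907 to 0.0267 (Pdcd4, knock-out interaction). No paired analysis was possible because the labels carry no replicate numbers that groups share; the block on sets of library numbers follows the order of the libraries only.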
